A study of Mus musculus with 12 samples.

Results

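The 10 genes described here encode proteins of germ granules and of the piRNA pathway: Ddx4, Dazl, Stk31, Rbm46, Piwil2, Mov10l1, Mael, Tdrkh, Tdrd1 and Asz1. They were chosen by name as germline RNA regulators and piRNA pathway genes, and all probe sets annotated to these symbols were used, which gave 14 of 45037 probe sets and 10 of 18194 gene symbols on the array. Dazl, Stk31, Rbm46 and Asz1 each have 2 probe sets and the other genes have 1. RNA was measured on 12 Affymetrix mouse genome arrays, 1 per embryonic stem cell (ESC) line before 4-hydroxytamoxifen (OHT) and 1 on day 2 after its addition at 800 nM for 24 hours. All 6 lines derive from ESCs that lack Ring1A and carry floxed Ring1B with a Rosa26-driven CreERT2 recombinase (Ring1A-/-; Ring1B fl/fl; Rosa26::CreERT2), so that OHT leads to loss of the endogenous Ring1B. The lines were stably transfected under puromycin selection with 3xFlag-tagged Ring1B constructs. Those named mutant here express Ring1B (I53S), clones #1 and #4, or Ring1B (I53A), clone #1, in which a change of isoleucine 53 impairs binding of the E2 enzyme and with it the E3 ubiquitin ligase activity towards histone H2A. The mock line, which the labels call only mock, is taken here to carry the empty vector. It is Ring1A/B-dKO after OHT. The 2 WT lines, clones #1 and #3, express WT Ring1B. Each line is 1 clone or selected culture, and the untreated arrays are not Ring1-proficient controls, because all lack Ring1A. Spread between lines, which the p-values measure, is therefore spread among the mutant cultures and between the 2 WT cultures. The single mock culture adds nothing to it.

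Germ granules are cytoplasmic assemblies of RNA and protein in germ cells, and in the male germline they hold the machinery that processes PIWI-interacting RNAs (piRNAs). piRNAs guide PIWI proteins to transposon transcripts, and tudor domain proteins hold the PIWI proteins in these assemblies by binding their methylated arginines. In ESCs, germline genes of this kind are known to be kept low by variant PRC1 complexes that contain PCGF6, L3MBTL2, E2F6 and MGA, which is recruited with MAX through the E-box CACGTG, and by DNA methylation.

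Because that E-box is the known binding sequence of MGA and MAX, the bases upstream of the members' start sites were searched for it. Members and motifs were chosen with earlier results of these data, or the promoter sequences, known. The shares below are therefore a description and no test of enrichment. Of the members, 9 could be matched to a promoter in RefSeq (GRCm38.p6, first listed start of each gene), and Piwil2 was not among them. CACGTG, which reads the same on both strands, lay within the 250 bases before the start in 6 of 9 members, against 6.05% of all 27025 genes and 9.58% of the 9320 genes whose upstream 250 bases had a CpG observed over expected ratio above 0.6. Counted from the start to its first base, it lay 11 bases upstream in Tdrd1, 29 in Ddx4, 34 in Rbm46, 55 in Stk31, 223 in Mael and 246 in Mov10l1. These stretches are shown 5′ to 3′ along the gene, ending at the start or at 50 bases past the motif, with CACGTG in capitals. They lie at chr19:56826148-56826208 (plus strand), chr13:112652311-112652389 (minus strand), chr3:82876484-82876567 (minus strand), chr6:49395434-49395538 (plus strand), chr1:166238912-166238994 (minus strand) and chr15:88982744-88982803 (plus strand).
Tdrd1: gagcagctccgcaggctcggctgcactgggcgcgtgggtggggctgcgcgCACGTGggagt
Ddx4: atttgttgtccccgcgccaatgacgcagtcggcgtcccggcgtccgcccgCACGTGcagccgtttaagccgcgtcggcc
Rbm46: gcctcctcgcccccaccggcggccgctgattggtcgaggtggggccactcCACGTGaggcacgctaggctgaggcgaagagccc
Stk31: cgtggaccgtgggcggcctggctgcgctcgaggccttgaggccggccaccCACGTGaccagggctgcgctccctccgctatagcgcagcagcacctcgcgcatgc
Mael: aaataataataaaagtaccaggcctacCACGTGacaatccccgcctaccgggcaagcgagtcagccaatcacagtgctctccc
Mov10l1: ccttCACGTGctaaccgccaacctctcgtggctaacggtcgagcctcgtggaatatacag

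Dazl, Tdrkh and Asz1 had no CACGTG in this window. For Dazl and Tdrkh the last 106 bases before the start are shown, at chr17:50293621-50293726 (minus strand) and chr3:94413138-94413243 (plus strand), with the CCAAT box in capitals, which on this strand reads ATTGG.
Dazl: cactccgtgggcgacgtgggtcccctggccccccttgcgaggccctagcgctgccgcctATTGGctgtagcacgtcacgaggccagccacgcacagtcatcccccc
Tdrkh: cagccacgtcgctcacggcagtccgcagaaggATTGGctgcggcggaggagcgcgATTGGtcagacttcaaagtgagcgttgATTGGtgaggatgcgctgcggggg
The CCAAT box, searched as ATTGG or CCAAT, occurred in 6 of 9 members, 5 times in Tdrkh, and in 34.5% of all genes. The E2F core GCGGGA or TCCCGC occurred in Ddx4, Mael and Rbm46, 3 of 9, against 16.9% of all genes, and the T-box site AGGTGTGA, on either strand, in 0 of 9, against 1.14%. None of these matches overlapped a match of another motif. The CpG observed over expected ratio had a median of 0.802 in the members and of 0.378 over all genes, and 8 of 9 members were above 0.6, against 34.5% of all genes. A match is a description of the letters and was not tested for binding.

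After OHT, 8 of the 10 genes rose in the mutant lines and 7 of 10 with the empty vector, while none passed the test with WT Ring1B (limma with the line as a block, adjusted p under 0.05 over 16432 genes). Ddx4, Dazl, Stk31 and Rbm46 rose among the germ granule and RNA-binding genes, and Piwil2, Mov10l1, Mael and Tdrkh among the piRNA machinery, whereas Tdrd1 and Asz1 did not pass. No member fell. Of all genes tested, 4.91% were called higher in the mutant lines and 1.55% were called lower there. The share called higher was 1.29% for the mock line and 0% for the WT lines, where 1 member and 1250 of all genes had an unadjusted p under 0.05. With the signals as deposited, not brought to 1 distribution, 7 members were called higher in the mutant lines, where all genes gave 540 higher and 571 lower calls (807 and 255 after quantile normalization), and 6 with the empty vector, where they gave 175 and 747 (212 and 63). All 10 changes kept their positive sign in the mutant and mock lines on that scale. The median change of the 10 members on the log2 scale was 1.23 for mutant Ring1B, 1.90 for the empty vector and 0.18 for WT Ring1B, where the medians over all genes were -0.01, 0.00 and 0.00. By line the members' medians were 1.35 in I53S #1, 1.15 in I53S #4, 1.27 in I53A #1 and 1.90 in the mock line, against 0.15 in WT #1 and 0.30 in WT #3. All 10 genes passed the filter on low signals, which asked for a log2 signal above 3.94 on at least 1 array. Rbm46 passed mainly through the arrays on which it was high, and without it 7 of 9 members were called higher in the mutant lines and 6 of 9 in the mock line. Leaving out 1 line at a time gave 3 to 8 members in the mutant lines, with 3 without I53A #1 and 4 without I53S #4, and 0 members in the mock line whichever other line was left out. Of all genes, 144 were called higher in the mutant lines without I53A #1 and 167 without I53S #4. In the mock line no gene at all was called in these fits. More cells with a transcript and more transcript per cell cannot be told apart in bulk RNA.

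**Figure D1:**
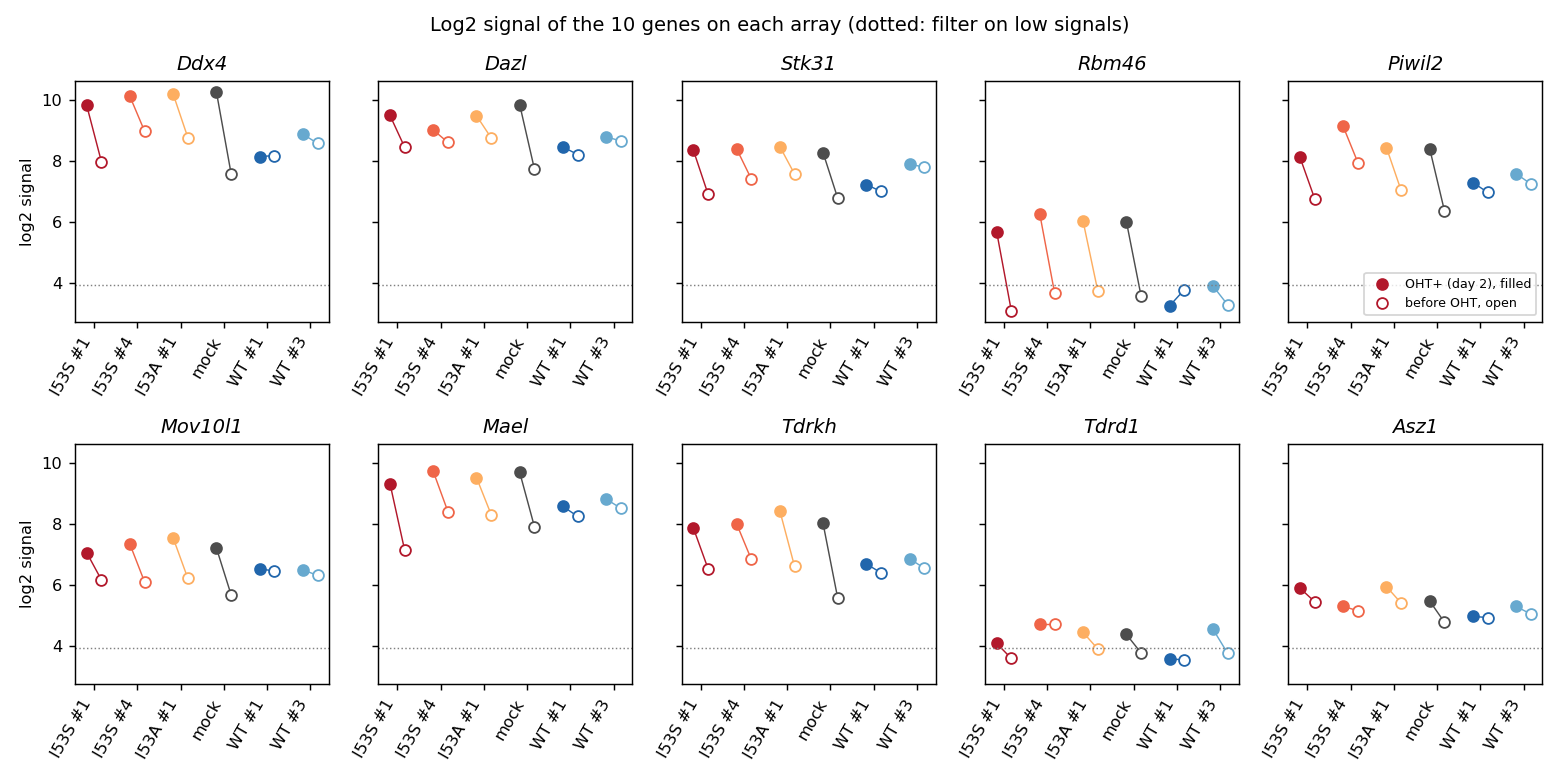
Log2 signal (y axis) of each of the 10 genes in the 6 lines (x axis), averaged over the probe sets of a gene, with filled points for OHT-treated cells on day 2, open points for the same line before OHT, and a dotted line at the filter of 3.94. In 8 genes the filled points of the 3 mutant lines and the mock line stand above their open points by more than those of either WT line do, least clearly for Dazl in I53S #4 (0.41). The WT points of Rbm46, below the dotted line, move by -0.53 and 0.62, and Tdrd1 and Asz1 show smaller or unequal differences.

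Ddx4, the RNA helicase that is the mouse vasa homologue and a core component of germ granules, reached log2 signals of 9.83 in I53S #1, 10.12 in I53S #4 and 10.20 in I53A #1 after OHT, against 7.99, 8.98 and 8.77 in these lines before OHT. In the mock line it was 10.27 after OHT and 7.59 before. WT #1 had 8.15 after OHT and 8.18 before, and WT #3 had 8.88 after and 8.58 before. The treated cells of all 4 lines without E3-active Ring1B lay above every other array. The fitted change was 1.47 ± 0.16 (SE, n = 3 lines, limma adjusted p = 0.00953) for mutant Ring1B, 2.68 ± 0.27 (n = 1, adjusted p = 0.0329) for the mock line and 0.13 (n = 2, adjusted p = 0.933) for WT Ring1B.

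Dazl, an mRNA-binding regulator of translation that germ cells need for their development, had the smallest change among the members called in the mutant lines and a larger one in the mock line. Averaged over its probe sets it was 9.50, 9.02 and 9.49 in treated I53S #1, I53S #4 and I53A #1 cells, against 8.45, 8.61 and 8.76 in the untreated cells. The mock line had 9.85 after OHT and 7.74 before. WT #1 had 8.46 after OHT and 8.22 before, and WT #3 had 8.79 after and 8.66 before. The change was 0.73 ± 0.14 (SE, n = 3, limma adjusted p = 0.0384) for mutant Ring1B and 2.11 ± 0.24 (n = 1, adjusted p = 0.034) for the mock line, and I53S #4 had the smallest of the mutant changes at 0.41, against 0.25 in WT #1. Taken singly, probe set 1419542_at passed in the mutant lines with a change of 0.85 (limma adjusted p = 0.0484) and probe set 1449502_at did not, with 0.60 (limma adjusted p = 0.119). Dazl also lost its call in the mutant lines when any 1 of the WT or mutant lines was left out, with adjusted p up to 0.147 over its alternatives.

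Stk31, which encodes a tudor domain protein of the germline that also has a kinase domain, gave like values with both probe sets. Their average was 8.37, 8.41 and 8.48 in treated I53S #1, I53S #4 and I53A #1 cells, against 6.92, 7.42 and 7.58 before OHT. It was 8.28 in the treated and 6.78 in the untreated mock line. WT #3 stood apart from WT #1 both after OHT, with 7.90 against 7.23, and before, with 7.80 against 7.01. The untreated WT #3 level exceeded that of all 3 untreated mutant lines. The change was 1.11 ± 0.13 (SE, n = 3, limma adjusted p = 0.0124) for mutant Ring1B and 1.50 ± 0.22 (n = 1, adjusted p = 0.0451) for the mock line, where the brighter probe set alone gave 1.54 and did not pass (limma adjusted p = 0.052).

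Rbm46, an RNA-binding protein that germ cells require to enter and progress through meiosis, was below the filter in untreated cells and above it in treated mutant and mock cells. Its level was 5.69, 6.25 and 6.03 in treated I53S #1, I53S #4 and I53A #1 cells, against 3.10, 3.68 and 3.74 in untreated cells. The treated mock line had 6.02 and the untreated one 3.58. In the WT lines the changes had opposite signs, with 3.26 after OHT and 3.79 before in WT #1 and 3.91 after and 3.29 before in WT #3. All of these untreated and WT values lie below the filter of 3.94, where the deposited signals come in steps of about 0.05 to 0.06, so they do not order the lines and a change against them has no exact size. Probe set 1439944_at was above the filter on 4 of 12 arrays, those of the treated mutant and mock cells, and 1443437_at on 6. Set against the filter of 3.94 itself, the mean of the treated mutant lines was higher by at least 2.05 on the log2 scale. I53S #1, at 5.69, was the lowest of them. The treated mock line was higher by at least 2.08. The fit to the values below the filter gave 2.48 ± 0.22 (SE, n = 3, limma adjusted p = 0.00697) for mutant Ring1B and 2.44 ± 0.38 (n = 1, adjusted p = 0.0477) for the mock line. Rbm46 kept its call in the mutant lines under the 12 alternatives in which it was tested. The filter on a mean signal above the median of all values removed it before testing. Its mock call was lost when only its brighter probe set was used (limma adjusted p = 0.086).

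Among the piRNA machinery, Piwil2, the PIWI argonaute also known as MILI that binds piRNAs, had the smallest spread of changes across the mutant lines. It was at 8.13, 9.14 and 8.44 in treated I53S #1, I53S #4 and I53A #1 cells, against 6.77, 7.95 and 7.04 in untreated cells, so that the lines differed in level but not much in change (1.36, 1.18 and 1.41). The mock line had 8.41 after OHT and 6.38 before. WT #1 had 7.30 after OHT and 6.98 before, and WT #3 had 7.59 after and 7.25 before. Untreated I53S #4 (7.95) was above both treated WT lines, so levels of treated and untreated cells overlap between lines although no mutant change overlaps a WT change. The change was 1.32 ± 0.09 (SE, n = 3, limma adjusted p = 0.00555) for mutant Ring1B, 2.03 ± 0.16 (n = 1, adjusted p = 0.0245) for the mock line and 0.33 (n = 2, adjusted p = 0.59) for WT Ring1B. Piwil2 was the only member with an unadjusted p under 0.05 in the WT lines, where its changes were 0.32 and 0.33.

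Mov10l1, the RNA helicase that starts the processing of piRNA precursors, showed 7.06, 7.33 and 7.54 in treated I53S #1, I53S #4 and I53A #1 cells, against 6.17, 6.09 and 6.21 in untreated cells. The mock line had 7.21 after OHT and 5.67 before. WT #1 had 6.53 after OHT and 6.45 before, and WT #3 had 6.49 after and 6.31 before. Every treated mutant and mock value was above all 8 other arrays, and the changes were 1.15 ± 0.11 (SE, n = 3, limma adjusted p = 0.00874) for mutant Ring1B and 1.53 ± 0.20 (n = 1, adjusted p = 0.0388) for the mock line. Mael encodes Maelstrom, a germ granule protein needed for transposon silencing. It was at 9.32, 9.72 and 9.52 in treated I53S #1, I53S #4 and I53A #1 cells, against 7.13, 8.40 and 8.30 in untreated cells. The mock line had 9.68 after OHT and 7.91 before, and the WT lines had 8.57 and 8.81 after OHT and 8.24 and 8.51 before. The lowest untreated value and the largest change, 2.19, both belonged to I53S #1. The change was 1.57 ± 0.20 (SE, n = 3, limma adjusted p = 0.0141) for mutant Ring1B, whereas 1.78 ± 0.34 for the mock line did not pass (n = 1, adjusted p = 0.0741).

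The tudor and scaffold proteins divided. Tdrkh, also called TDRD2, binds PIWI proteins at the mitochondrial surface during trimming of piRNA ends. It was at 7.87, 8.01 and 8.43 in treated I53S #1, I53S #4 and I53A #1 cells, against 6.53, 6.84 and 6.61 in untreated cells. The mock line had 8.01 after OHT and 5.56 before. The WT lines had 6.69 and 6.86 after OHT, and 6.39 and 6.55 before. The treated mutant and mock values were again above all other arrays, with a change of 1.44 ± 0.14 (SE, n = 3, limma adjusted p = 0.00863) for mutant Ring1B and of 2.46 ± 0.24 (n = 1, adjusted p = 0.0329) for the mock line.

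Tdrd1, another tudor partner of PIWI proteins, was dim. Its level was 4.08, 4.71 and 4.44 in treated I53S #1, I53S #4 and I53A #1 cells, against 3.59, 4.71 and 3.90 in untreated cells. The mock line had 4.38 after OHT and 3.77 before, WT #1 had 3.57 after and 3.54 before, and WT #3 had 4.55 after and 3.76 before. Only 6 of 12 arrays exceeded the filter, the largest change of any line was the 0.79 of WT #3, and I53S #4 changed by 0.00. The fitted changes were 0.35 ± 0.18 (SE, n = 3, limma adjusted p = 0.324) for mutant Ring1B, 0.61 (n = 1, adjusted p = 0.362) for the mock line and 0.41 (n = 2, adjusted p = 0.753) for WT Ring1B.

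Asz1, or GASZ, a scaffold that anchors germ granules to mitochondria, was read differently by its probe sets. At 1424939_at the treated I53S #1, I53S #4, I53A #1 and mock cells had 6.38, 5.45, 6.59 and 5.74, against 5.34, 5.27, 5.22 and 4.60 in the untreated cells. At 1422402_a_at the same treated cells had 5.40, 5.14, 5.29 and 5.20, against 5.56, 5.03, 5.58 and 4.96 untreated. The mutant change was 0.87 at the first (limma adjusted p = 0.128) and -0.11 at the second (limma adjusted p = 0.67), neither of which passed. In the WT lines 1424939_at had 4.73 and 5.22 after OHT and 4.66 and 4.91 before. The averaged gene had a change of 0.38 ± 0.11 (SE, n = 3, limma adjusted p = 0.116) for mutant Ring1B and 0.69 ± 0.19 (n = 1, adjusted p = 0.143) for the mock line, so its value depends on which probe sets are averaged.

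**Figure D2:**
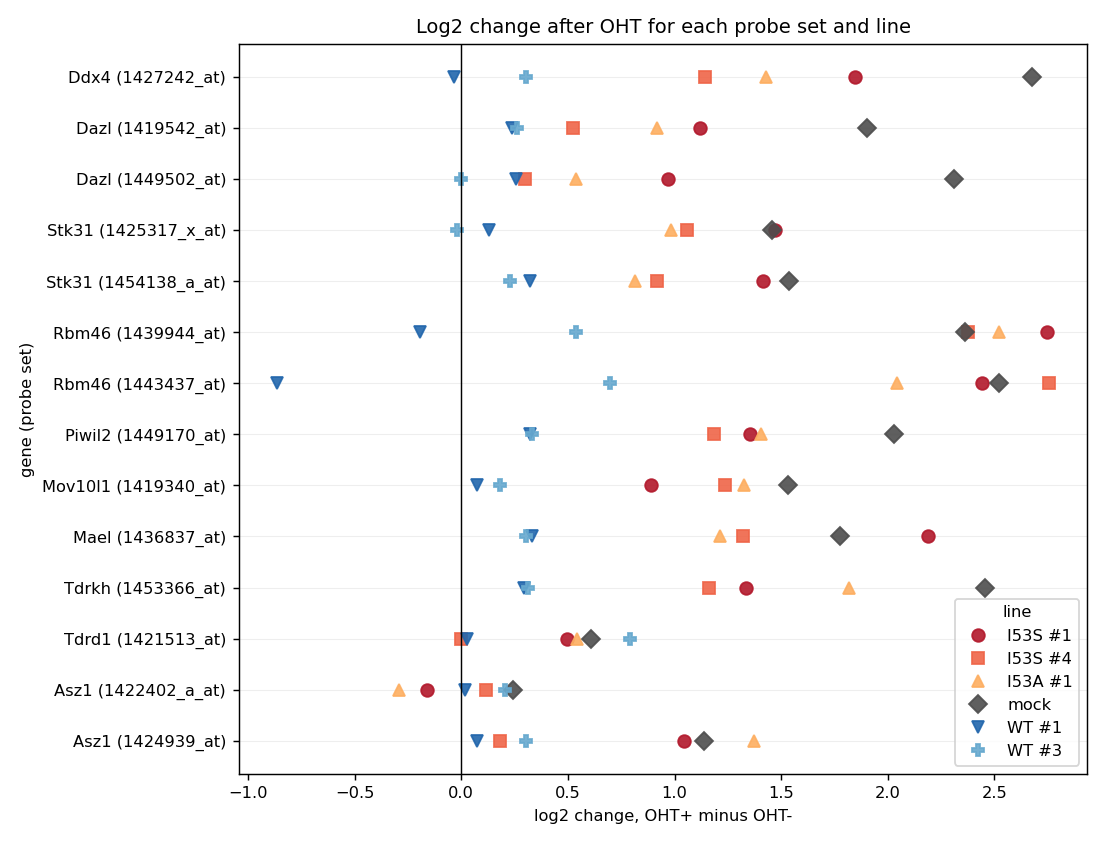
Log2 change after OHT (x axis, OHT+ minus OHT-) at each of the 14 probe sets (y axis), with 1 symbol per line. The mutant and mock symbols lie to the right of both WT symbols at most probe sets, the Asz1 probe sets disagree with each other, the Dazl changes of I53S #4 lie near those of WT #1, and at Tdrd1 WT #3 has the largest change (0.79).

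Fitted as single probe sets, 10 of the 14 were called higher in the mutant lines and 0 lower, against 2% of all 37446 probe sets called higher. Both probe sets of Rbm46 are among these 10. Of them, 1439944_at passed the filter only through the treated mutant and mock arrays on which it was high, so its call is no independent count. In the mock line 0 of 14 probe sets were called at this level (limma adjusted p of 0.0764 or more), and 0% of all probe sets were, while for gene averages the same line gave 7 of 10 members. The members' unadjusted p in the mock line was under 0.05 for 9 of 10 genes, against 3265 of 16432 genes in all.

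Whether the mutant lines differed from the WT lines in their response was tested as the difference of the OHT effects. The mutant change exceeded the WT change in 9 of 10 members, by a median of 1.00, and in 8 of 10 members all 3 mutant changes lay above both WT changes, which held for 16.1% of all genes. Without Rbm46 these counts were 8 of 9 and 7 of 9, and the median was 0.99. None of these differences passed the test (limma adjusted p from 0.114 to 0.955), where 0% of all genes were called higher. At an unadjusted p under 0.05, 8 members and 2066 of all genes were found. The smallest adjusted p belonged to Rbm46, whose untreated and WT values are below the filter. The differences were 0.99 ± 0.14 for Piwil2 (limma adjusted p = 0.116), 1.02 ± 0.18 for Mov10l1 (adjusted p = 0.142), 1.34 ± 0.25 for Ddx4 (adjusted p = 0.148) and 0.54 ± 0.22 for Dazl (adjusted p = 0.394), each with its SE. With a prior variance that follows the signal and is robust to outliers (trended and robust prior in limma), 7 members passed, Rbm46 among them. Of all 16432 genes, 194 were called higher and 78 lower with this prior. The calls of this difference therefore depend on how the variance is estimated. The mock minus WT difference had a median of 1.58 over the members, with 8 members and 2360 of all genes at an unadjusted p under 0.05, and none passed after adjustment, with 0% of all genes called higher. Both comparisons share the WT arrays.

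**Figure D3:**
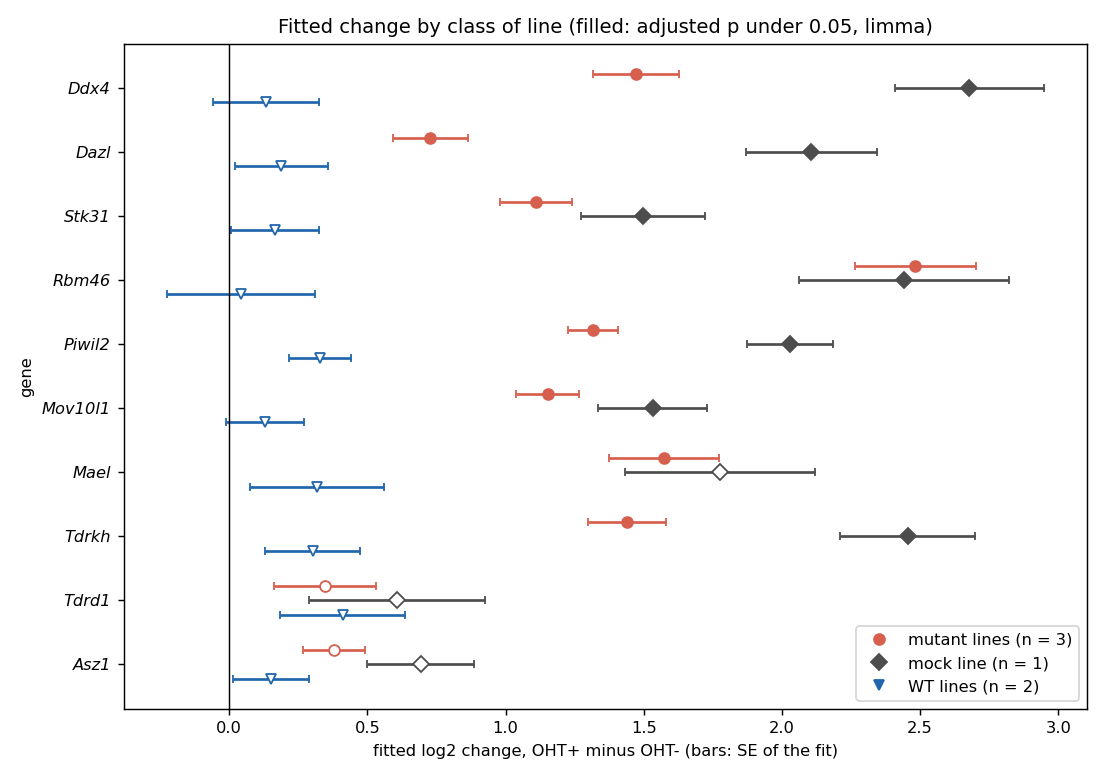
Fitted log2 change after OHT (x axis) of each gene (y axis) in the 3 mutant lines, the mock line and the 2 WT lines, with bars for the SE of the limma fit and filled symbols for an adjusted p under 0.05. Filled symbols stand for 8 genes with mutant Ring1B and 7 with the empty vector (all of the 8 but Mael), no WT symbol is filled, and the mock change of Ddx4, Dazl, Tdrkh and Piwil2 lies to the right of the mutant change.

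The empty vector line was also set against the lines with E3-dead Ring1B. The treated mock level was within the range of the treated mutant lines for 7 of 10 members, above it for Ddx4 and Dazl and below it for Stk31, where 45.9% of all genes were within that range. In 9 of 10 members, all but Tdrd1, the treated mutant and mock cells were all above both treated WT lines. This held for 13.8% of all genes. Without Rbm46, whose treated WT values are below the filter, the count was 8 of 9. Asz1 met the condition by a small margin, with a lowest treated mutant value of 5.30 against 5.29 in WT #3. Before OHT, in contrast, the mock line had the lowest level of the 6 lines for 7 of 10 members (Ddx4, Dazl, Tdrkh, Mov10l1, Piwil2, Asz1 and Stk31), which held for 19.2% of all genes. The change in the mock line exceeded that in the mutant lines in 9 of 10 members, by a median of 0.38 and by 1.38 for Dazl, 1.21 for Ddx4, 1.02 for Tdrkh and 0.71 for Piwil2. None of these passed (limma adjusted p from 0.502 to 0.993), 4 members and 1322 of all genes had an unadjusted p under 0.05, and 0% of all genes were called higher. With 1 mock line, the level of this line before OHT and its response cannot be told apart from the state of a single culture.

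Before OHT, when all lines still carry the endogenous Ring1B, the members did not pass a test between mutant and WT lines. The mutant minus WT difference ranged from -0.43 to 0.41 over the members, the adjusted p from 0.951 to 0.994, and 0 members and 862 of all genes had an unadjusted p under 0.05. No gene was called higher (0%). All 3 untreated mutant lines were below both untreated WT lines for Mov10l1, with 6.17, 6.09 and 6.21 in I53S #1, I53S #4 and I53A #1 against 6.45 and 6.31 in WT #1 and WT #3. For Asz1 they were all above, with 5.45, 5.15 and 5.40 against 4.93 and 5.04. With 1 of 10 members each way, this is near the shares over all genes, which were 10.2% below and 10.2% above.

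The other genes of the pathway moved less uniformly. Of 20 further piRNA pathway genes 17 were tested, of which 4 rose and 1 fell in the mutant lines, with a median change of 0.24, against -0.01 over all genes. Btbd18, a nuclear regulator of pachytene piRNA loci, rose by 1.51 (limma adjusted p = 0.0141). Tex15, which acts in piRNA-directed transposon silencing, rose by 1.34 (limma adjusted p = 0.00617), and Tdrd7, a germ granule tudor protein, by 0.90 (limma adjusted p = 0.0287). Morc1, a germline transposon repressor, fell by 1.07 (limma adjusted p = 0.0124). In the mock line 2 of the 17 rose and none fell, with a median of 0.04, and the WT median was -0.05. Of 17 tested genes of other germline RNA regulators, 6 rose and none fell in the mutant lines, with a median of 0.37, and 2 rose in the mock line, with a median of 0.56. Cpeb1, which controls cytoplasmic polyadenylation in oocytes, rose by 1.64 (limma adjusted p = 0.0055). Hspa2, a testis chaperone, rose by 1.36, Ddx25, a testis RNA helicase, by 0.99 and Boll, a relative of Dazl, by 0.67 (limma adjusted p from 0.00617 to 0.0265). Of 19 measured subunits of the E2F6 and MGA complex and other repressors of germline genes, 1 rose and 1 fell in the mutant lines, which is near the shares over all genes (4.91% and 1.55%), with a median of -0.13. E2f6 rose by 0.64 (limma adjusted p = 0.0215), and Dnmt3a, a de novo DNA methyltransferase, fell by 0.58 (limma adjusted p = 0.0222).

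**Figure D4:**
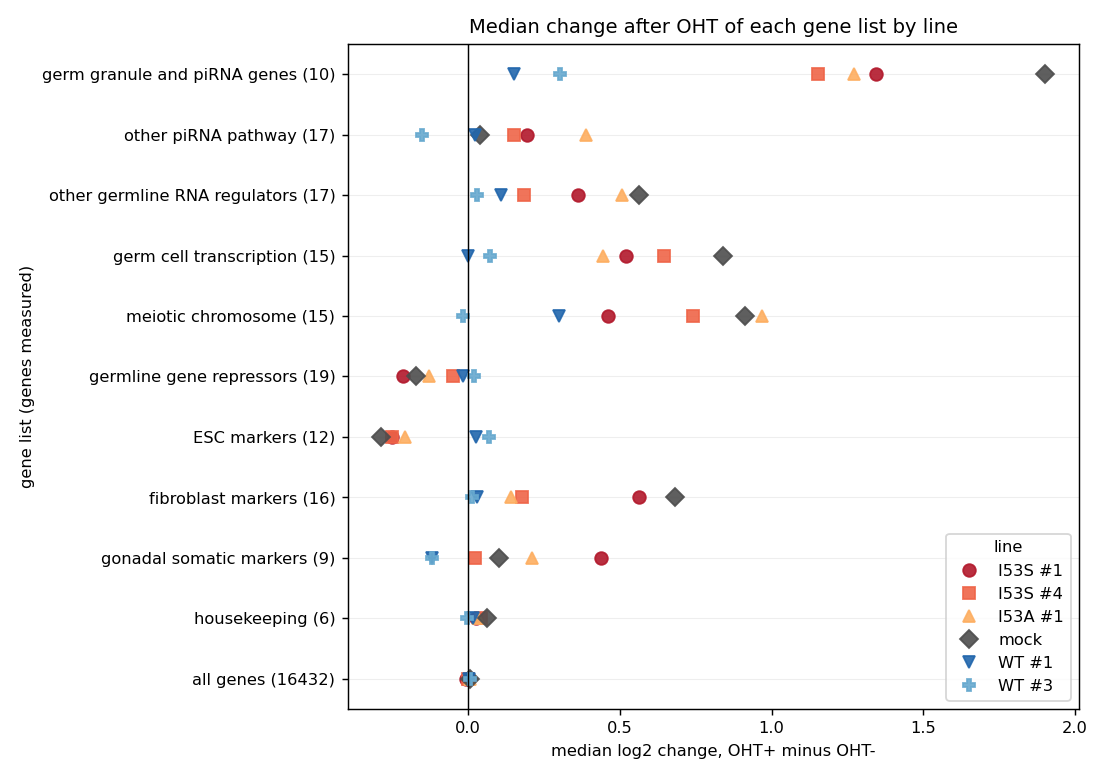
Median log2 change after OHT (x axis) of each gene list (y axis, with the number of genes measured) in each of the 6 lines. The 10 germ granule and piRNA genes have medians from 1.15 to 1.90 in the mutant and mock lines and only 0.15 and 0.30 with WT Ring1B, the other piRNA pathway genes reach at most 0.39 in any line, and the fibroblast markers are highest in the mock line (0.68) and I53S #1 (0.56).

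The arrays were checked for their cell type. The mean log2 signal of 12 ESC markers, Pou5f1, Nanog and Sox2 among them, lay between 10.78 and 11.14 on all arrays, and 1 of them rose in the mutant lines (Klf4, by 0.55). Their median change was -0.26 for mutant Ring1B and -0.29 for the mock line, against 0.04 for WT Ring1B. The mutant minus WT difference was below 0 for 11 of 12 markers, of which none passed. Its median was -0.32 over the markers and 0.00 over all genes. The part of this shift in the members' changes was not tested. The cells had been grown on irradiated mouse embryonic fibroblasts or gelatin, and fibroblast markers were present. Of 16 tested fibroblast markers 1, Thy1, rose with mutant Ring1B and also with the empty vector, and their median change was 0.30 for mutant Ring1B, 0.68 for the mock line and -0.04 for WT Ring1B. Their mean log2 signal was 6.71 to 7.86 in treated and 6.72 to 7.32 in untreated mutant lines, 7.92 in the treated and 7.36 in the untreated mock line, and 6.24 to 6.78 in treated and 6.31 to 6.76 in untreated WT lines. Before OHT, 15 of the 16 markers were higher in the mutant than in the WT lines. The median of this difference was 0.51 over the markers and 0.01 over all genes. By line the fibroblast median changed by 0.56 in I53S #1, 0.18 in I53S #4, 0.14 in I53A #1 and 0.68 in the mock line. The members' medians changed by 1.35, 1.15, 1.27 and 1.90 in the same lines. In WT #1 and WT #3 the fibroblast median changed by 0.03 and 0.01, and the members' by 0.15 and 0.30. The part of fibroblasts in the members' levels was not tested. Of 9 gonadal somatic markers, tested because they could accompany germline genes in a tissue, 1 rose in the mutant lines (Wt1, by 1.68), with a mean signal of 4.49 to 4.91 over all arrays. Of 6 housekeeping genes 1 rose (B2m, by 0.68), with a median of 0.03. Rnf2, the gene of Ring1B, had its brightest probe set between 10.57 and 11.29 and Ring1 lay between 5.24 and 6.49 on all arrays. No source used here places them inside or outside the deleted exons, so they do not check the labels.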

How the data were processed

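The deposited values are log2 signals of single arrays, which the labels attribute to Affymetrix Expression Console with RMA, while the supplementary methods describe MAS5 signals and quantile normalization. The array medians differed (4.66 to 5.69), so signals were quantile normalized. The values come in steps (2815 to 3553 distinct values per array). The 64 control probe sets were left out. Probe sets with 1 gene symbol (34945 of 45037, with 932 to several symbols and 9160 to none) whose highest signal exceeded the 30th percentile of all values (3.94) were averaged per gene, which gave 16432 genes. All 12 arrays were fitted in R 4.3.3 with limma 3.58.1 (lmFit and eBayes, two-sided, degrees of freedom 3 residual and 2.79 prior). Line entered as a block, each class had its own OHT term, and Benjamini-Hochberg adjustment ran over all genes. The mock line borrows its spread from the other lines. Levels before OHT were compared on the 6 untreated arrays. A block was used because both arrays of a line come from the same cells, and their deviations from the class means correlated at 0.27 in WT and 0.362 to 0.427 in mutant lines. The deviations of the WT lines mirror each other, so both lines must give the same correlation. Those of the mutant lines are not independent of each other either. No arrays were identical. The fit was tested on simulated data. The genes named are all 10 members and, of each other list, up to 4 called genes with the largest change. Members, lists and motifs were chosen with earlier results of these data, or the promoter sequences, known. Precision is limited by the number of arrays. Alternatives were a fit without the block, the values as deposited, centring on medians, other filters, single probe sets, other priors, a minimum change of 0.5 and each line left out.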

Additional observations from a re-analysis of the deposited data

Results flagged for a closer look

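Of the genes named in the text, 3 had a change above 0 in all 3 mutant lines and below 0 in both WT lines after OHT, as did 7 further genes of the 125 on the other lists that are not named by the rule for named genes. The mutant minus WT difference of the OHT effects was 1.96 for Cpeb1, an oocyte regulator of mRNA polyadenylation, 1.71 for Figla, an oocyte transcription factor, and 0.85 for Thy1, a fibroblast surface marker. None of these differences passed the limma test over all genes (adjusted p of 0.088, 0.114 and 0.142). None of the 10 members met this condition, because the change in WT #3 was above 0 for each of them.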

How the results depend on the processing

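The number of members called higher in the mutant lines was 8, and 6 to 8 under other normalizations, filters and priors and without the replicate block (6). Leaving out 1 line gave 3 to 8 (3 without I53A #1, 4 without I53S #4). In the mock line the number was 7, but 5 without the replicate block, 5 with only the brightest probe set of a gene (without Rbm46 and Stk31) and 0 with single probe sets, and 0 without any 1 of the other 5 lines, when no gene at all was called. For mutant minus WT it was 0, but 1 with a filter on the mean and 7 with trended and robust priors, and for mock minus WT 0, but 1 and 8. Over all genes, the 1062 called in the mutant lines became 563 without the block, 1777 with the mean filter, 2219 with trended priors and 153 to 1054 without 1 line, and the 275 of the mock line 97, 883, 1340 and 0 (also 0 with single probe sets). Mutant minus WT calls were 47 and 272 and mock minus WT calls 17 and 453 under the mean filter and trended priors. With values as deposited the split of calls was 540 higher and 571 lower in the mutant lines (807 and 255 after quantile normalization) and 175 and 747 in the mock line (212 and 63), where the median of all genes was -0.13 and -0.34, and 41 genes differed before OHT. Some uncalled values changed sign. The WT change of Rbm46 became -0.083 with its brightest probe set and ran from -0.54 to 0.64 with 1 line left out, and that of Ddx4 ran from -0.034 to 0.30. For Tdrd1, mutant minus WT ran from -0.45 to 0.33 with 1 line left out, and mock minus WT from -0.18 to 0.59, with -0.12 as deposited. Mock minus mutant became -0.053 for Mael as deposited. For Rbm46 it became 0.0024 with centred arrays and 0.11 with the brightest probe set, and ran from -0.14 to 0.014 with 1 line left out. Dazl lost its mutant call without the block, as deposited and without any 1 WT or mutant line, Piwil2 without the block, Ddx4 without I53A #1, Tdrkh without I53S #1, and Mael, Mov10l1 and Stk31 without I53S #4 or I53A #1. The causes were not tested.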

Other observations

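About as many germline genes of other functions passed the test as did not. Of 15 germ cell transcription regulators 8 rose and none fell in the mutant lines, with a median change of 0.61, and 4 rose in the mock line, with a median of 0.84, against a median of 0.04 in the WT lines. Over all genes 4.91% were called higher in the mutant lines, and 1.29% with the empty vector. Genes of the list that did not pass include Stra8 and Taf4b, with mutant changes of 0.05 and 0.04, which were picked, like Stag3 among the meiotic genes, after their values were seen. Dmrt1 rose by 1.54 (limma adjusted p = 0.00617), Figla by 1.52 (0.00915), Nobox by 1.43 (0.0137) and Lhx8 by 1.26 (0.0124), of which Dmrt1 acts in male germ cells and the other three in oocytes. Of 15 tested meiotic chromosome genes 7 rose and none fell in the mutant lines, with a median of 0.55, and 4 rose in the mock line, with a median of 0.91, against 0.17 in the WT lines, and Stag3, a meiotic cohesin, was at 0.03 in the mutant lines without passing. Tex101, a surface protein of germ cells and not a chromosome protein, rose by 2.12 (0.0252), Sycp2, a lateral element protein of the synaptonemal complex, by 1.73 (0.00458), Tex12 by 1.66 (0.0217) and Tex11 by 1.54 (0.0137). The mean log2 signal of the untreated arrays was 3.24 for Lhx8 and 3.84 for Sycp2, below the filter of 3.94. As for Rbm46, the changes of Lhx8 and Sycp2 against such values have no exact size.

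Across all genes with a RefSeq promoter, 7.04% of the 1037 tested genes with CACGTG in the 250 bases before the start were called higher in the mutant lines, against 4.57% of the 12070 without it. Leaving out the members, these shares were 6.6% of 1031 and 4.55% of 12067. Among genes with a CpG observed over expected ratio above 0.6, again without the members, they were 6.88% of 741 and 4.55% of 6769. Most genes with this motif were therefore not called, and the shares are given as a description with no test.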
